A study of Mus musculus with 3008 samples.

Results

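Among regulatory T cells (Tregs) of the mouse colon, a small group of cells carried transcripts of Ccr7 or Bcl6. The group holds 44 of 610 cells of one colon library and 130 of 1744 cells of the other, each with at least 1000 unique molecular identifiers (UMIs, each a captured transcript), out of 3008 cells in the whole series. Members were chosen by their UMI counts of 8 genes. A cell was a member when Ccr7 and Bcl6 together gave at least 2 UMIs, Gata3 and Il1rl1 together gave 1 or fewer, and the stress genes Fosb, Hspa1a, Hspa1b and Atf3 together gave fewer than 5. These 8 gating genes chose the cells and support nothing below.

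The cells came from male mice aged 7 months of strain B6 Foxp3-Ires-Gfp, in which green fluorescent protein reports Foxp3. All groups shared this strain, sex and age, and the labels give no treatment. Live TCRb+ CD4+ GFP+ cells were sorted from colon lamina propria, the tissue layer beneath the epithelium, after collagenase and dispase digestion, and from spleen after mechanical dissociation, and effects of tissue and of dissociation cannot be told apart. The inDrops libraries, made by capturing cells in droplets with barcoded primers, were 1 of spleen and 2 of colon, called colon 1 and colon 2. The labels name no animal, and for colon 2 the title gives a second replicate where the sample type gives the number of the first, so each library is treated as 1 sample. All intervals are 95% intervals of counting error only, and no difference between libraries or tissues was tested across animals.

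CCR7 is the chemokine receptor that guides T cells into lymph nodes and the T cell zones of spleen, and it is typical of resting, recirculating T cells. BCL6 is the transcriptional repressor that drives the follicular programme, in which CXCR5 takes a T cell into the B cell follicle. Follicular Tregs share this programme with follicular helper T cells and restrain germinal centre responses. Most Tregs of the gut wall are effector cells with high IL-10, granzyme B and KLRG1.

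The 3 libraries held 1253246 to 3916649 UMIs. Spleen and colon 1 shared 5 cell barcodes, spleen and colon 2 shared 11, and the colon libraries shared 9. Sequencing gave a median of 58.7 reads per UMI in spleen, 61.6 in colon 1 and 26.7 in colon 2. All members together gave 95636 UMIs in colon 1 and 311759 in colon 2, so colon 2 supports the firmer values, and a gene with 0 UMIs in members can only be placed under 31.4 counts per 1000000 (CPM) in colon 1 and 9.62 CPM in colon 2. CPM is taken over all UMIs of a class of cells in a library. Members were as deep as other colon cells, with median UMIs of 1831 against 1780 in colon 1 and 2140 against 2033 in colon 2.

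Members made up 44 of 610 colon 1 cells (7.21%, 5.29% to 9.56%) and 130 of 1744 colon 2 cells (7.45%, 6.27% to 8.79%). The shares of both libraries lay inside each other's interval. The same gates held 29 spleen cells (4.73%, 3.19% to 6.72%, of those with at least 1000 UMIs). Requiring 2 UMIs of Ccr7 and Bcl6 alone would have taken 8.85% and 9.69% of colon cells. The Gata3 and Il1rl1 gate by itself removed 8 and 27 of these cells, and the stress gate by itself 3 and 12.

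Ccr7 chose most members. It had a UMI in 40 of 44 members of colon 1 and in all but 17 of the 130 members of colon 2, while Bcl6 had one in 12 and 51. Members with Ccr7 and no Bcl6 numbered 32 and 79, those with Bcl6 and no Ccr7 numbered 4 and 17, and those with both numbered 8 and 34. Summed over members, Ccr7 stood at 2478 CPM in colon 1 and 2435 CPM in colon 2, against 59.2 and 68.2 CPM in the other colon cells. Bcl6 stood at 282.3 and 381.7 CPM against 8.70 and 19.8 CPM. These values restate the gate.

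**Figure D1:**
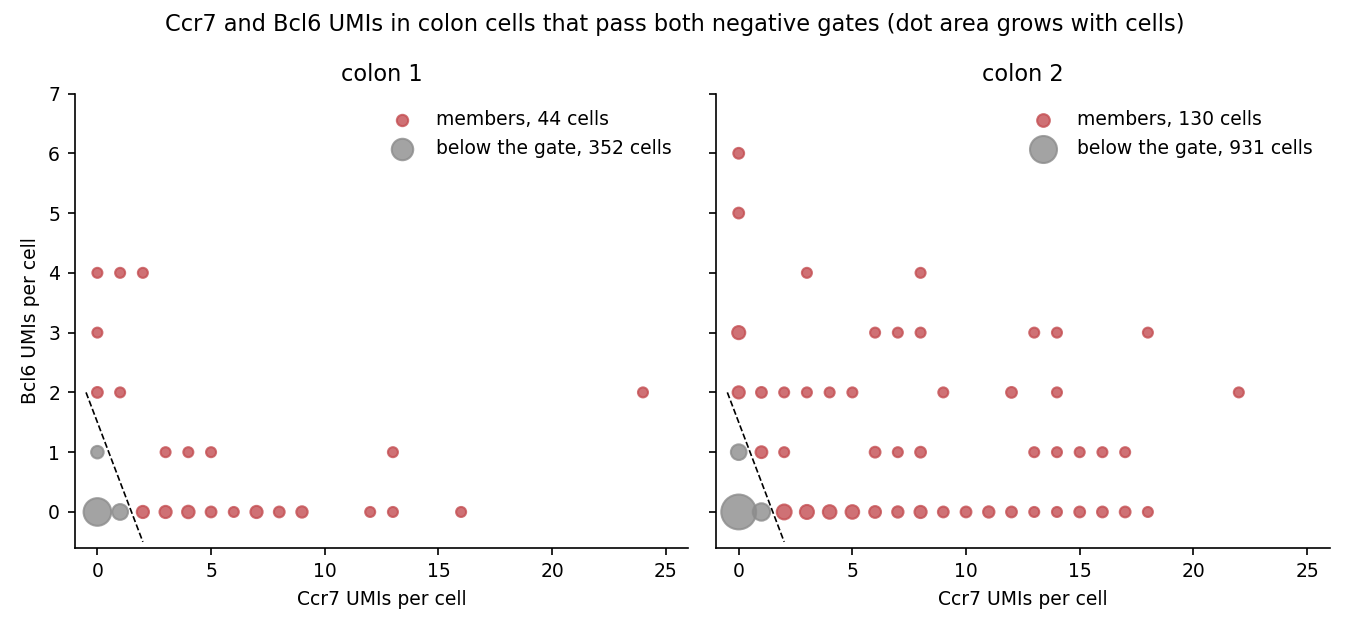
Ccr7 UMIs (x axis) and Bcl6 UMIs (y axis) of each colon cell that passed the Gata3 and Il1rl1 gate and the stress gate, in colon 1 (left) and colon 2 (right). Red dots are the 44 and 130 members, grey dots the cells below the dashed gate, dots grow with the number of cells at that position, and most members lie along the Ccr7 axis.

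Among cells that passed the other gates, Gzmb, the cytotoxic protease granzyme B, stood in colon 2 at 2990 CPM in the cells with no UMI of Ccr7 or Bcl6, at 977.03 CPM in the 60 cells with 1 UMI, at 897.8 CPM in the 26 members with 2 UMIs, and at 427.96 CPM in the 57 members with 6 or more. In colon 1 the values in that order were 3047, 534.2, 1032.5 and 136.6 CPM, the last 3 over 29, 7 and 18 cells. For this gene, the cells with 1 UMI were nearer to the members than to the cells with none. S1pr1, an exit receptor of T cells, differed from this. It stood at 67.2 and 31.4 CPM in colon 1 cells with 0 and 1 UMI and at 76.2 and 153.1 CPM in those of colon 2, both nearer to each other than to the 365.97 and 356.04 CPM of all members. Cells with 1 UMI are counted here among the other colon cells. At the Gata3 and Il1rl1 gate, cells of both colon libraries were pooled, so these values depend on the mix of libraries. The 27 members with 1 UMI of these genes had 180 CPM of Klrg1, an inhibitory receptor of terminal effector cells. The 14 cells kept out with 2 UMIs had 702.2 CPM. Gzmb went the other way there, at 850.2 against 476.5 CPM, and S1pr1 differed little, at 103.1 against 100.3 CPM. The 20 cells kept out with 3 or more UMIs had 436.1 CPM of S1pr1 and 1263 CPM of Gzmb. The edge of this gate therefore did not part these genes in the same way.

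The label under which these cells were proposed calls them follicular-like. Its remaining markers were in part higher in members, though not in members alone. Cxcr5, the follicle homing receptor, was above the other colon cells in both libraries. It gave 7 UMIs in 5 members of colon 1 (73.2 CPM against 14.8 CPM) and 26 UMIs in 14 members of colon 2 (83.4 CPM against 32.97 CPM). The log2 ratios were 2.31 (0.79 to 3.65) and 1.34 (0.67 to 1.96). In colon 2 the 60 cells with 1 UMI of Ccr7 and Bcl6, which are not members, had 109.4 CPM of Cxcr5. The 57 colon 2 members with 6 or more UMIs had 46.1 CPM. In colon 1 both of these groups had 0 UMIs of Cxcr5. Izumo1r, which encodes folate receptor 4, a surface protein of resting and follicular Tregs, stood at 784.2 and 808.3 CPM in members and at 439.4 and 384.2 CPM in the other cells. Its log2 ratios were 0.84 (0.47 to 1.19) and 1.07 (0.87 to 1.27), and spleen Tregs were higher than members, at 1211 CPM. Cells with 1 UMI of Ccr7 and Bcl6 had 832.7 CPM of Izumo1r in colon 1 and 656.2 CPM in colon 2.

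Hey1, a transcriptional repressor downstream of Notch signalling, separated the libraries. Colon 1 members held 1 UMI in 1 of 44 cells (10.5 CPM against 20.9 CPM in the other cells), and colon 2 members held 41 UMIs in 14 of 130 cells (131.5 CPM against 20.96 CPM). The log2 ratios were -0.998 (-6.36 to 1.62) and 2.65 (2.06 to 3.22). The colon 1 interval rests on 1 UMI and reaches from far below to above no difference, and the spleen library had 0 UMIs of Hey1. Pdcd1, the inhibitory receptor PD-1, which is high on follicular T cells, stood at 198.7 and 311.1 CPM in members against 127.02 and 210 CPM. The log2 ratios were 0.65 (-0.13 to 1.34) and 0.56 (0.24 to 0.87). Cells with 1 UMI of Ccr7 and Bcl6, which are not members, had 78.6 and 94.8 CPM of Hey1 in colon 1 and colon 2. Their Pdcd1 stood at 78.6 and 291.7 CPM.

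The genes that led the difference from other colon cells were those of resting and recirculating T cells, so the cells are called Ccr7 or Bcl6 colon Tregs, or members, in what follows. The Ccr7 gate selects for such cells by design, since Ccr7 itself belongs to that programme. Members were checked as T cells of the sorted kind. Cd4 stood at 596.01 and 808.3 CPM in members and at 642.1 and 913.7 CPM in the other colon cells, Cd8a had 0 UMIs in members of either library while Cd8b1 had 3 and 13 (31.4 and 41.7 CPM against 52.2 and 39.7 CPM), and Foxp3 had a UMI in 45.5% and 36.2% of members against 48.4% and 44.7% of the other cells.

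Against the other colon cells, 32 of 1664 genes at 100 CPM or more stood at least 2-fold above them in members of both libraries (1.92%) and 55 at least 2-fold below (3.31%). With edgeR's TMM scaling the split was 24 higher and 78 lower, and with median of ratios scaling 26 and 62. TMM moved the median of all these genes by -0.23 on the log2 scale and median of ratios moved it by -0.13. In colon 2 alone 3.68% of genes were higher and 4.65% lower, and in colon 1 alone, with its 44 members, 14.8% and 9.72%. Transcripts of ribosomal protein genes made up 21.3% and 19.7% of UMIs in members and 17.1% and 15.8% in the other cells, and their part in the result was not tested beyond totals without those genes, which gave 38 higher and 49 lower.

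**Figure D2:**
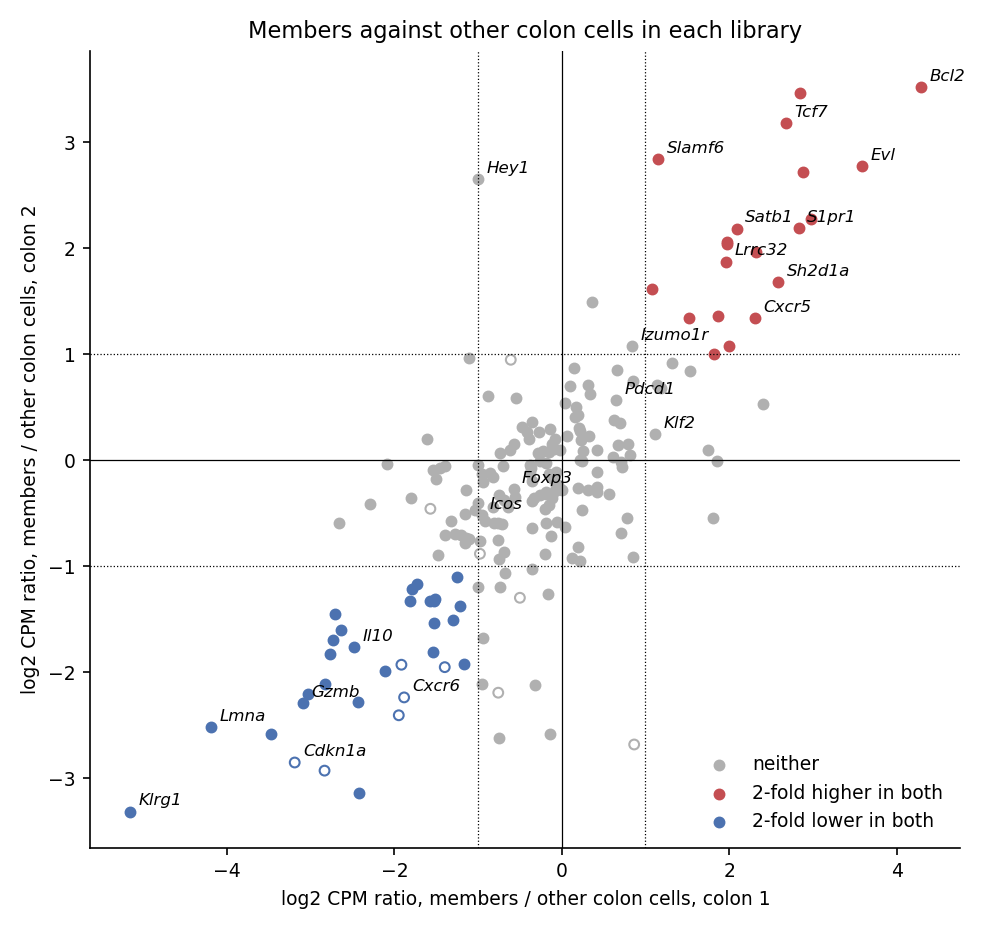
Log2 CPM ratio of members to other colon cells in colon 1 (x axis) and colon 2 (y axis) for the named genes and list members that could be measured, where open circles have 0 UMIs in members of a library and are bounds. Red genes such as Bcl2, Evl and S1pr1 are at least 2-fold higher in both libraries, blue genes such as Klrg1, Lmna and Gzmb at least 2-fold lower, and Hey1 falls on opposite sides.

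Genes of survival and recirculation stood highest. Bcl2, which protects resting lymphocytes from apoptosis, stood at 135.9 and 150.8 CPM in members of colon 1 and colon 2 and at 6.96 and 13.1 CPM in the other cells, with log2 ratios of 4.29 (2.91 to 5.76) and 3.52 (2.91 to 4.14). S1pr1, the receptor by which T cells leave lymphoid tissue, stood at 365.97 and 356.04 CPM against 51.3 and 77.96 CPM, with log2 ratios of 2.83 (2.19 to 3.46) and 2.19 (1.86 to 2.51). In both libraries the members' level of each of these genes lay above the other cells of both libraries. S1pr1 came from 8 of 44 and 30 of 130 members, so most members had no captured transcript of it.

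Satb1, a chromatin organiser of resting T cells, stood at 460 and 471.5 CPM in members and 107.9 and 103.7 CPM in the other cells, with log2 ratios of 2.09 and 2.19. Evl, a regulator of actin filaments, had log2 ratios of 3.59 and 2.78, from 209.1 and 137.9 CPM in members. Tcf7, which encodes the resting and stem-like T cell factor TCF1, stayed below 100 CPM, at 83.7 and 48.1 CPM against 13.1 and 5.31 CPM, and its log2 ratios were 2.68 and 3.18. Klf2, which drives S1pr1 transcription, was higher in colon 1 (627.4 against 288.8 CPM, log2 ratio 1.12, 0.70 to 1.52) and close to the other cells in colon 2 (375.3 against 317.2 CPM, log2 ratio 0.24, -0.04 to 0.52). Il7r, the IL-7 receptor of resting T cells, was not raised, with 94.1 and 227.7 CPM against 267.1 and 258.2 CPM.

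The resting lymphoid-organ list held 23 genes, of which 15 had at least 20 UMIs in each colon library. Of these 6 passed 2-fold upward in both libraries (Bcl2, Evl, Nsg2, Tcf7, S1pr1 and Satb1) and 0 lower, against 1.6% higher and 2.71% lower of all 6484 genes measured that way. The list's median log2 ratio was 1.12 in colon 1 and 0.85 in colon 2, where all measured genes had -0.01 and 0.02. All scalings tried gave 6 higher and 0 lower. Other high genes were Tbc1d4 (334.6 and 260 CPM against 45.2 and 39.4 CPM), a regulator of glucose transporter traffic, and Lrig1 (188.2 and 160 CPM against 47.9 and 39.1 CPM), which encodes a membrane protein that restrains growth factor receptors. Fam101b, Actn1 and Card6 had log2 ratios between 1.96 and 2.97.

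Follicular genes were mixed. Of 28 genes in the follicular list 16 could be measured, of which 4 stood at least 2-fold higher in both libraries (Sh2d1a, Slamf6, Cxcr5 and Il1r2), 1 was lower (Angptl2), and 11 were neither. The shares over all 6484 genes measured that way were 1.6% higher and 2.71% lower. TMM and median of ratios gave 3 higher and 1 lower. The list's median log2 ratio was 0.31 in colon 1 and 0.16 in colon 2, under TMM 0.05 and 0.01. Sh2d1a encodes SAP, the adaptor that lets T cells stay in contact with B cells, and stood at 428.7 and 137.9 CPM against 71.3 and 43.03 CPM, with log2 ratios of 2.59 (2.01 to 3.15) and 1.68 (1.16 to 2.18). Slamf6, a receptor that signals through SAP, gave 5 UMIs in colon 1 (log2 ratio 1.15, -0.58 to 2.55) and 45 in colon 2 (144.3 against 20.1 CPM, log2 ratio 2.84, 2.27 to 3.40).

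Il1r2, a decoy receptor for IL-1 carried by follicular Tregs, stood at 146.4 and 109.1 CPM against 40.02 and 42.5 CPM, but 8 of its 14 UMIs in colon 1 and 18 of its 34 in colon 2 came from a single cell. Icos, Maf and Gpr183, described here because they were fixed among the named genes, did not pass 2-fold in both libraries. Icos, the costimulatory receptor needed for follicular helper cells and also high on effector Tregs, stood at 1307 and 2653 CPM in members against 2540 and 3805 CPM, with log2 ratios of -0.96 (-1.23 to -0.70) and -0.52 (-0.62 to -0.42). Maf, a transcription factor of follicular and gut Tregs, had log2 ratios of -0.98 and -0.76. Gpr183, an oxysterol receptor that positions cells at the follicle border, had -1.11 and -0.75.

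Effector genes of gut Tregs stood lowest. Klrg1 gave 2 UMIs in colon 1 members (20.9 against 746.5 CPM) and 32 in colon 2 members (102.6 against 1022 CPM), with log2 ratios of -5.16 (-8.21 to -3.30) and -3.32 (-3.87 to -2.82). Gzmb stood at 334.6 and 583.8 CPM against 2854 CPM in the other cells of either library, with log2 ratios of -3.09 (-3.64 to -2.59) and -2.29 (-2.51 to -2.08). Il10, the anti-inflammatory cytokine, stood at 261.4 and 468.3 CPM against 1459 and 1591 CPM, with log2 ratios of -2.48 (-3.11 to -1.91) and -1.76 (-2.01 to -1.53). Each of these 3 genes was lower in colon 1 members than in colon 2 members, and both were below the other cells of either library.

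Lmna, the lamin of the nuclear envelope that activated T cells switch on, had log2 ratios of -4.18 and -2.52, from 52.3 and 205.3 CPM in members against 950.9 and 1174 CPM. Fgl2, a secreted suppressive protein, had -2.83 and -2.11, and Cxcl10, a chemokine, had -2.44 and -2.28. Cdkn1a, the cell cycle inhibitor p21, had 0 UMIs in colon 1 members, which puts it at least 9.12-fold lower there, and a log2 ratio of -2.85 in colon 2. Mmp9, a matrix protease, was likewise at 0 UMIs, at least 7.13-fold lower in colon 1, with -2.93 in colon 2. Cxcr6, a receptor of tissue-resident T cells, was at least 3.69-fold lower in colon 1 and had -2.24 in colon 2.

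**Figure D3:**
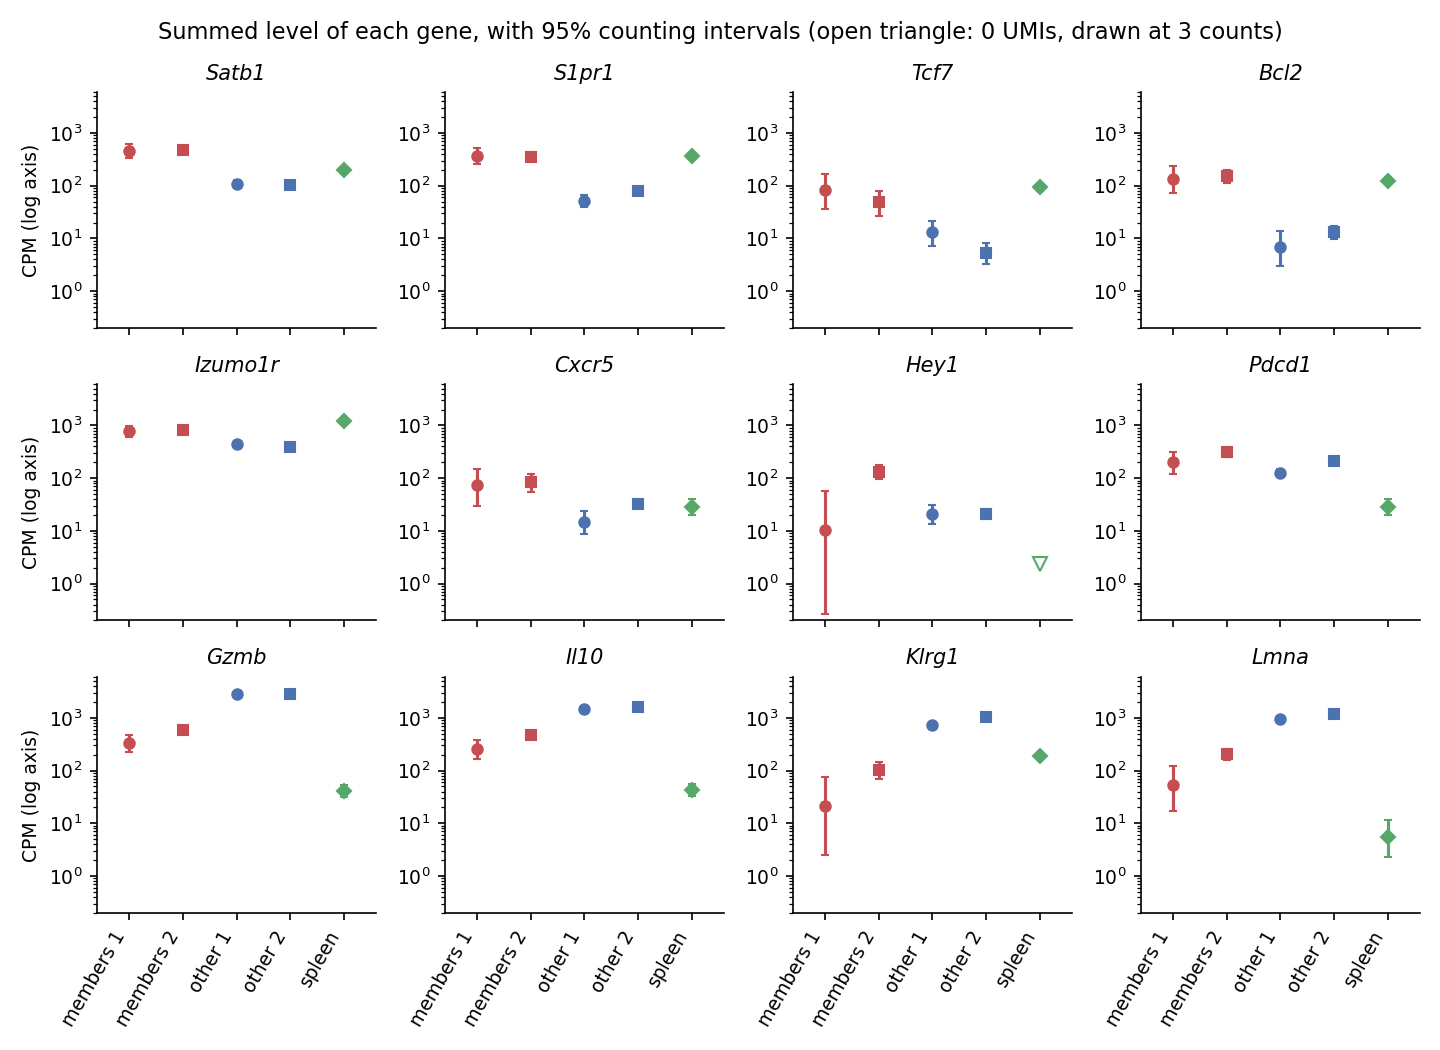
Level of 12 genes in CPM (log axis) in members of colon 1 and colon 2 (red), the other cells of the same libraries (blue) and spleen cells (green), with 95% counting intervals and an open triangle at the floor of 3 counts where no UMI was found. S1pr1 and Bcl2 of members lie near spleen, and Gzmb and Il10 of members lie between spleen and the other colon cells.

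All 24 genes of the activated effector list could be measured. Of these 8 were at least 2-fold lower in both libraries (Klrg1, Id2, Glrx, Cd44, Cxcr6, S100a4, S100a6 and Irf4) and 0 higher, and TMM gave 9 lower. Over all 6484 genes with at least 20 UMIs in each library, 2.71% were lower and 1.6% higher. The median log2 ratio was -0.97 and -0.75. S100a6, a calcium-binding protein of activated and migrating cells, stood at 648.3 and 949.5 CPM against 4019 and 2890 CPM. Irf4, a factor that drives effector Treg differentiation, stood at 31.4 and 67.4 CPM against 208.8 and 217.7 CPM. Of 13 measured suppressive and repair genes 4 were lower (Il10, Gzmb, Fgl2 and Areg) and 1 was higher.

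The higher gene was Lrrc32, which encodes GARP, the surface anchor of latent TGF-beta on Tregs. It stood at 564.6 and 663.97 CPM in members against 144.4 and 181.3 CPM, with log2 ratios of 1.97 (1.496 to 2.42) and 1.87 (1.64 to 2.10), and had a UMI in 22 of 44 and 66 of 130 members. Of 14 measured Treg identity genes 2 were higher (Lrrc32 and Nrp1), 1 was lower (Socs2), and 11 were neither. Over all 6484 genes measured that way 1.6% were higher and 2.71% lower. The summed identity list was lower in members, at 8062 and 8782 CPM against 11278 and 11845 CPM in the other colon cells. In spleen it gave 4513 CPM. Foxp3 stood at 313.7 and 256.6 CPM against 467.2 and 310 CPM, with log2 ratios of -0.57 (-1.16 to -0.04) and -0.27 (-0.62 to 0.06). Ikzf2, which encodes Helios, had 0.42 and -0.11, and Il2ra, the IL-2 receptor alpha chain, had -0.20 and -0.89. Nrp1, a marker of thymus-derived Tregs, stood at 104.6 and 112.3 CPM against 36.5 and 44.4 CPM.

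The GATA3 and ST2 partner genes, whose leading pair was used as a gate, had 1 of 10 higher (Nrp1) and 2 lower (Klrg1 and Areg). Of all 6484 genes measured that way 1.6% were higher and 2.71% lower. The list's median log2 ratios were -0.50 and -1.31. Against the colon cells that passed both negative gates, 1 of 7 was higher and 1 lower, with medians of 0.53 and -0.25. This list therefore moved with the negative gates as well.

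Of 24 measured trafficking receptors 2 were higher (S1pr1 and Cxcr5) and 5 were lower (Cd69, Cd44, Ccr2, Ccr1 and Cxcr6). The shares over all 6484 genes measured that way were 1.6% and 2.71%. Cd69, which holds T cells in tissue by removing S1PR1 from the surface, stood at 209.1 and 157.2 CPM against 515.9 and 448.2 CPM, with log2 ratios of -1.30 (-2.02 to -0.66) and -1.51 (-1.95 to -1.10). Cxcr4, a receptor for the stromal chemokine CXCL12, did not pass 2-fold in both libraries, with 763.3 and 667.2 CPM against 306.2 and 354.04 CPM (log2 ratios 1.32 and 0.91). Itgae, the integrin chain CD103 that binds epithelial E-cadherin, differed little, with log2 ratios of 0.16 (-0.65 to 0.88) and 0.41 (-0.04 to 0.83). The lymphoid exit receptor was therefore high while the epithelial anchor was near the level of other colon Tregs.

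Of 13 measured genes of early T cell receptor signalling 4 were lower and 0 higher, with median log2 ratios of -0.77 and -0.75. For this and the lists below, the shares over all 6484 measured genes were 2.71% lower and 1.6% higher. Against the colon cells that passed both negative gates, 3 of 12 were lower (3.15% of all 5111 genes) and the medians were -0.35 and -0.34. Summed over the whole list, members had 4632 and 5315 CPM, those cells 5390 and 5971 CPM and the other colon cells 6178 and 7094 CPM. The summed list therefore moved with the negative gates as well. Of 20 measured dissociation and heat-shock genes, counted without the gating genes, 1 was lower (Dusp1) and 0 higher, with median log2 ratios of -0.56 and -0.32. Since the stress gate removed cells with many such transcripts from members alone, this comparison moves with the rule. Cell cycle, glycolysis, MHC class I, interferon and AP-1 lists each had at most 1 gene past 2-fold.

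**Figure D4:**
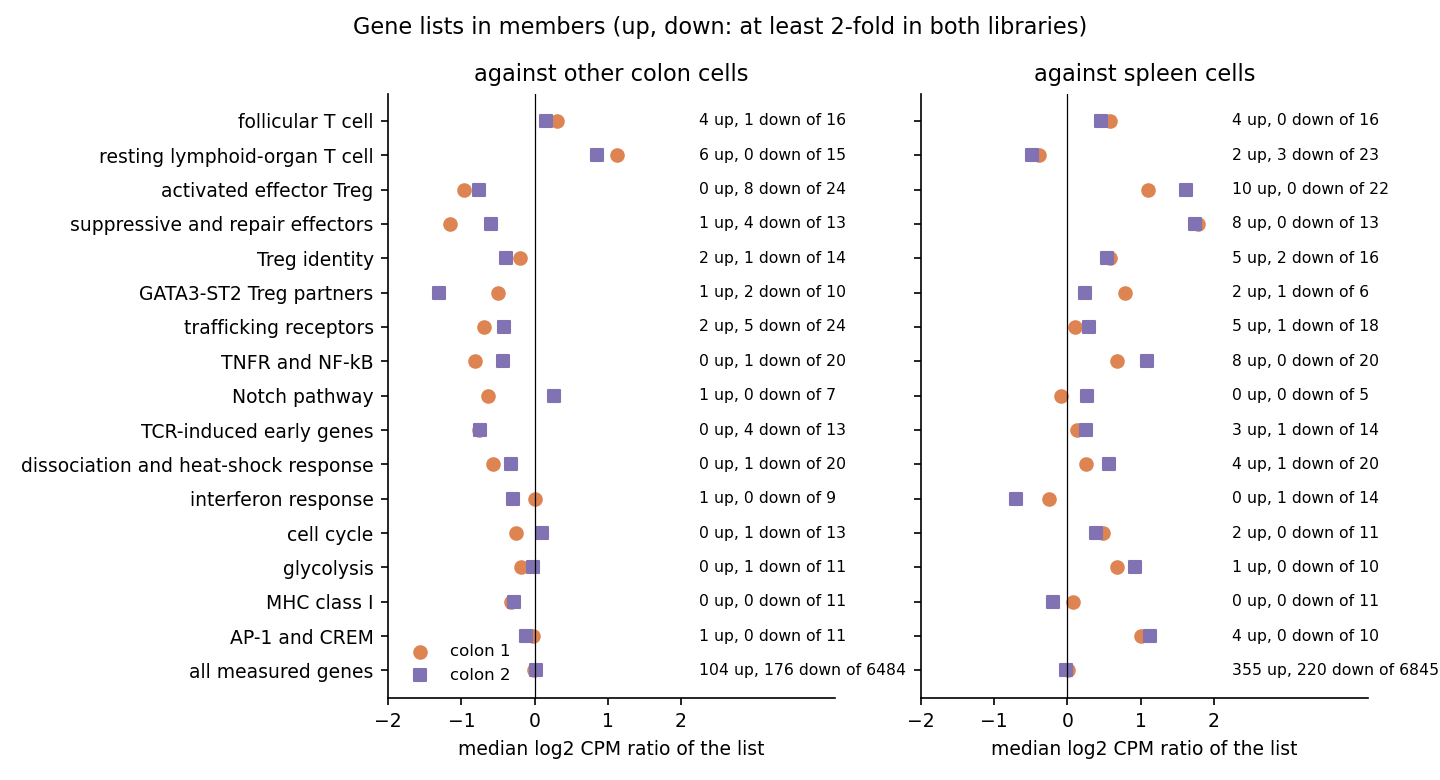
Median log2 CPM ratio of each gene list in colon 1 (orange circles) and colon 2 (purple squares), against other colon cells (left) and spleen cells (right), with the numbers of measured genes at least 2-fold higher or lower in both libraries. The resting list is above 0 against other colon cells and below 0 against spleen, and the activated and suppressive lists do the reverse.

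To separate the Ccr7 and Bcl6 gate from the negative gates, members were set against the colon cells that passed both negative gates but had at most 1 UMI of Ccr7 and Bcl6. Of 1676 genes 30 were at least 2-fold higher (1.79%) and 46 lower (2.74%), and TMM gave 24 and 68. Among the resting list 5 of 14 measured genes were higher and 0 lower, where 1.25% and 3.15% of all 5111 genes measured that way were. Colon 2 alone gave 3.44% higher and 4.84% lower, and colon 1 alone 14.3% and 10.2%. These cells are part of the other colon cells above, so the 2 comparisons share both members and compared cells.

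Against these matched cells, Bcl2 had log2 ratios of 3.96 and 3.97, and S1pr1 2.52 and 2.13. Klrg1, which runs with Gata3 in gut Tregs, moved closer, from -5.16 to -4.43 in colon 1 and from -3.32 to -2.34 in colon 2. Gzmb stayed at -3.07 and -2.29. Of 15 measured follicular genes 2 were higher and 1 lower (2 and 2 under TMM), with median log2 ratios of 0.53 and -0.05. Over all 5111 genes measured that way 1.25% were higher and 3.15% lower. Pdcd1 passed 2-fold here, with 198.7 and 311.1 CPM against 74.1 and 137.8 CPM and log2 ratios of 1.42 (0.58 to 2.21) and 1.18 (0.83 to 1.51). Cxcr5 had 2.07 (0.49 to 3.53) and 1.06 (0.36 to 1.71), and Hey1 again had a ratio below 0 in colon 1 (-1.47, from 1 UMI) and above it in colon 2 (2.56).

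Members were then set against all spleen cells with at least 1000 UMIs. Of 1753 genes 10.2% were at least 2-fold higher in members of each colon library and 2.22% lower. Both ratios share the spleen library. Ribosomal protein genes took 28.2% of the UMIs in spleen. With totals that leave them out 8.10% of genes were higher and 3.45% lower, and TMM gave 7.36% and 4.06%. Colon 2 alone gave 18.2% and 5.78% and colon 1 alone 22.4% and 7.02%.

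S1pr1 and Bcl2, which set members apart in the colon, were near their spleen level. S1pr1 stood at 365.97 and 356.04 CPM in members and 364.2 CPM in spleen, with log2 ratios of 0.01 (-0.53 to 0.50) and -0.03 (-0.35 to 0.27). Bcl2 stood at 125.4 CPM in spleen, with log2 ratios of 0.12 and 0.27. Klf2 had 0.07 and -0.67. Satb1 was at least 2-fold above spleen in both libraries, with 1.22 and 1.26. Of the 23 resting genes, all measured here, 2 were higher and 3 lower, where 5.19% and 3.21% of all 6845 genes were. The list's median log2 ratios were -0.38 and -0.48, so members did not match spleen across it. Of the 32 genes high against other colon cells, 10 were within 2-fold of spleen in both libraries. At least 2-fold above spleen were 14 and at least 2-fold below 2, where 10.2% and 2.22% of all 1753 genes tested were. The 32 genes were picked for high counts in members, and the same counts enter the ratio to spleen. Values above spleen were thus favoured by the choice, and these counts support nothing further.

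Other genes of members stood far from their spleen level, where tissue and dissociation cannot be told apart. Fosl2, an AP-1 transcription factor, stood at 690 and 667.2 CPM in members and 4.79 CPM in spleen, with log2 ratios of 7.17 and 7.12. Ramp3, a partner of calcitonin family receptors, stood at 418.3 and 846.8 CPM against 3.99 CPM. Crem, a cAMP-responsive transcription factor, stood at 1391 and 1270 CPM against 22.4 CPM, with 5.96 and 5.83. Vps37b, Dusp10, Ipmk and Dgat1 had log2 ratios between 4.105 and 5.36. These genes were far above spleen in both libraries, but the dissociation genes differed too. Of 20 measured, 4 were higher and 1 lower (1 and 1 under the other scalings), against 5.19% and 3.21% of all 6845 genes. The part of dissociation genes in the result was not tested. The summed AP-1 and CREM list, which holds Fosl2 and Crem, gave 5939 and 6402 CPM in members and 2289 CPM in spleen. The other colon cells had 6687 and 7637 CPM, so that difference from spleen was not particular to members. Dusp10 was also higher in members than in other colon cells (log2 ratios 1.99 and 1.40).

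Effector genes of members lay between spleen and the other colon cells. Gzmb stood at 41.5 CPM and Il10 at 43.1 CPM in spleen, and the members' log2 ratios were 3.01 and 3.81 for Gzmb and 2.60 and 3.44 for Il10. Of 22 measured activated effector genes 10 were higher than in spleen and 0 lower, where TMM gave 10 and 1. Of 13 suppressive genes 8 were higher. Over all 6845 genes measured that way 5.19% were higher than in spleen and 3.21% lower. The summed activated effector list gave 10320 and 13379 CPM in members, 24133 and 24606 CPM in the other colon cells and 5596 CPM in spleen. The summed resting list gave 4172 and 4083 CPM in members, 2122 and 2444 CPM in the other colon cells and 4071 CPM in spleen. The summed follicular list was lower in members than in the other colon cells, at 4423 and 5992 CPM against 5161 and 6732 CPM, and stood at 5525 and 7311 CPM in the gate-matched cells and 2709 CPM in spleen.

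Follicular genes were above spleen in 4 of 16 cases, against 5.19% of all 6845 genes measured that way (3.21% were lower). Pdcd1 stood at 28.8 CPM in spleen, with log2 ratios of 2.79 and 3.44, Icos at 296.3 CPM with 2.14 and 3.16, and Maf at 188.5 CPM with 1.41 and 1.86. Cxcr5, also at 28.8 CPM in spleen, had 1.35 (-0.06 to 2.54) and 1.54 (0.75 to 2.30). Among the lowest genes against spleen were Myc, the growth regulator, with -3.42 and -2.54, Itgb1, the integrin beta 1 chain, with -2.48 and -1.81, and Id3, an inhibitor of E proteins, with -1.59 and -2.81. Nrp1, higher than in other colon cells, was lower than in spleen, at 104.6 and 112.3 CPM against 325.1 CPM.

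The 29 spleen cells that passed the same gates were described after the data had been seen. They held 1228.4 CPM of Ccr7 and 108.8 CPM of Bcl6, from 79 and 7 UMIs. S1pr1 stood at 357.6 CPM and Izumo1r at 1695 CPM. Gzmb, Il10 and Hey1 had 0 UMIs in these cells, which allows up to 46.6 CPM.

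After each cell was thinned to 1000 UMIs, 15 of 44 colon 1 members (34.1%) and 38 of 130 colon 2 members (29.2%) held a UMI of S1pr1, Tcf7 or Klf2 and none of Gzmb, Il10, Klrg1 or Fgl2. The reverse held for 8 (18.2%) and 35 (26.9%), genes of both groups were found in 3 (6.82%) and 10 (7.69%), and neither in 18 (40.9%) and 47 (36.2%). In the other colon cells the recirculation genes alone were found in 4.77% and 4.34%, and effector genes alone in 65.9% and 66.4%. In spleen the shares were 45.4% and 8.97%. The 7 genes were chosen with their values known. At 1000 UMIs a cell with 0 UMIs of a gene may still express it, so these shares do not show whether the transcripts lay in the same or in different cells.

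**Figure D5:**
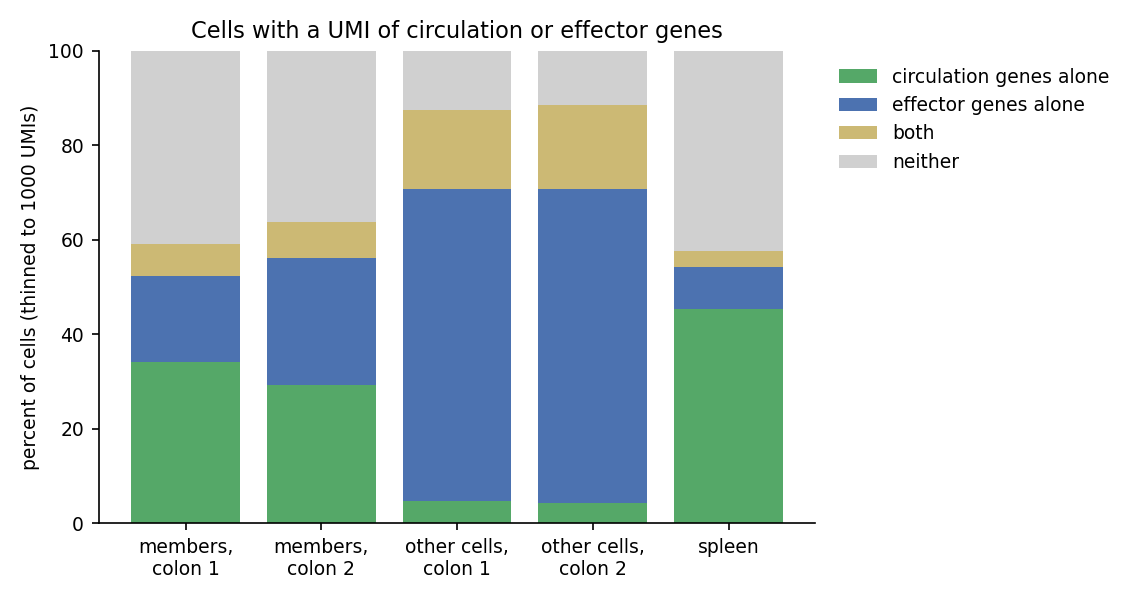
Percent of cells, thinned to 1000 UMIs, with a UMI of S1pr1, Tcf7 or Klf2 (circulation genes), of Gzmb, Il10, Klrg1 or Fgl2 (effector genes), of both groups or of neither, in members, other colon cells and spleen cells. Circulation genes alone make up 34.1% and 29.2% of members and 4.77% and 4.34% of other colon cells.

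Shares for single genes followed the same order. Gzmb was found in 15.9% and 16.2% of thinned members (18.2% and 21.5% unthinned), 50.2% of thinned other cells in either colon library and 1.5% of thinned spleen cells. S1pr1 was found in 15.9% and 19.2% of thinned members (18.2% and 23.1% unthinned), 3.71% and 4.03% of the thinned other colon cells (4.95% and 6.63% unthinned) and 21.5% of thinned spleen cells. No class in these sorted libraries lacks Treg genes by definition. The spleen share of Gzmb and the other colon cells' share of S1pr1, at median depths of 1850, 1780 and 2033 UMIs, are the lowest available levels for reading these shares.

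Members with Bcl6 differed from members without it in some genes. The split of members with any Bcl6 UMI (12 and 51 cells) from those without (32 and 79) was added after seeing the data. It also divides members by Ccr7. Under the rule, members without Bcl6 all have at least 2 UMIs of Ccr7, while 4 and 17 of those with Bcl6 have none. Differences that go with Bcl6 and with Ccr7 cannot be told apart here. Of 1568 genes 46 passed 2-fold upward in both libraries (2.93%) and 28 lower (1.79%), and most rest on a few UMIs. Tox, a transcription factor of follicular and chronically stimulated T cells, stood at 434.97 and 384.9 CPM with Bcl6 and 42.7 and 117.6 CPM without, with log2 ratios of 3.35 (1.43 to 5.83) and 1.71 (0.95 to 2.51). Ikzf2 stood at 1938 and 865.9 CPM against 370 and 374.3 CPM, with 2.39 (1.68 to 3.14) and 1.21 (0.76 to 1.67). Il1r2 gave 14 UMIs against 0 in colon 1 and 27 against 7 in colon 2, but 8 of the 14 and 18 of the 27 came from a single cell each.

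S1pr1 and Txnip were lower in members with Bcl6 than in those without. Of 8 measured resting genes 0 were higher and 2 lower (S1pr1 and Txnip), where 0.602% and 1.45% of 830 genes measured that way were. S1pr1 stood at 39.5 and 184.4 CPM with Bcl6 and 483.3 and 470.5 CPM without, with log2 ratios of -3.61 (-8.96 to -1.04, from 1 UMI) and -1.35 (-2.08 to -0.68). Il2ra had -1.18 and -1.27. Txnip, an inhibitor of glucose uptake, had -3.11 and -1.62. Cxcr5 had 2.80 (0.19 to 6.19) and 0.81 (-0.41 to 2.05), with 2 and 12 UMIs in members without Bcl6. Pdcd1 had 0.36 and 0.79, and Hey1 in colon 2 had 0.51 (-0.45 to 1.47). The Cxcr5 ratios rest on few UMIs and a split made after seeing the data, so no difference is claimed. Gzmb had -1.80 and -0.90 and Il10 -1.40 and -0.77, so the effector genes were not higher in members with Bcl6.

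The split that had been planned, members with Ccr7 alone against members with Bcl6 alone, rests on 4 and 17 Bcl6 cells with 9049 and 39040 UMIs. Of 1700 genes 17 were higher (1%) and 130 lower (7.65%), but among genes with at least 20 UMIs in each library 12 were higher (1.71%) and 10 lower (1.42%). The excess of lower genes was therefore among those with few UMIs. Hmgb2, a chromatin protein of dividing cells, gave 41 UMIs in Ccr7 cells against 2 in colon 1 and 81 against 5 in colon 2, and Itgb7, an integrin chain of gut homing, gave 24 against 1 and 45 against 4. Klf2 was also higher in Ccr7 cells, with 51 UMIs against 3 and 82 against 1. Lower in Ccr7 cells were Tox (log2 ratios -3.96 and -2.12), Ikzf2 (-2.65 and -1.62) and Cxcr5 (-1.96 and -1.26). Cxcr5 rests on 1 and 6 UMIs in Bcl6 cells.

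Summed transcripts of other cell types were lower in members than in the other colon cells for some lists and higher for others. Among 13 B cell genes, 9 and 8 were at 0 in members, Cd79a and Ms4a1 among them, and the list summed to 73.2 and 150.8 CPM in members against 113.1 and 128.8 CPM in the other colon cells, led by Cd74. The list of mature CCR7+ dendritic cells summed to 784.2 and 773.03 CPM against 542.9 and 542.4 CPM, with 11 and 10 of its 15 genes at 0. It is led by Tmem123 and holds Tbc1d4, both also expressed by T cells, and its part in the result was not tested. Macrophage or dendritic cell genes summed to 167.3 and 282.3 CPM against 312.3 and 290.6 CPM. Stroma or endothelium genes summed to 146.4 and 99.4 CPM against 66.1 and 56.2 CPM, nearly all from Pecam1, which T cells also express.

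Plasma cell genes summed to 62.7 and 19.2 CPM against 21.8 and 19.3 CPM, from 6 UMIs in members of each library. Granulocyte or mast cell genes summed to 83.7 and 32.1 CPM against 62.6 and 46.7 CPM, led by Csf3r. CD8 or NK cell genes summed to 73.2 and 141.1 CPM against 170.5 and 129.7 CPM, led by Cd8b1 in members, and conventional helper T cell genes to 0 and 38.5 CPM against 64.4 and 74.3 CPM. The part of these transcripts in the results was not tested beyond leaving out the cells counted next. Innate lymphoid cell genes, several shared with effector Tregs, summed to 888.8 and 1023.2 CPM against 1663 and 1618 CPM. Cells with at least 2 UMIs of 73 genes of other cell types numbered 3 of 44 members (6.82%) and 12 of 130 (9.23%), against 7.597% and 11.2% of the other colon cells. Without such cells in any class, 35 genes were higher and 56 lower than in the other colon cells.

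In the mm10 build and the GENCODE vM21 annotation, the gating genes Ccr7 and Bcl6 are protein-coding genes at chr11:99144196-99155077 and chr16:23965052-23988852, both on the minus strand. Of the genes on which the comparisons turn, S1pr1 lies at chr3:115710433-115715072 (minus), Bcl2 at chr1:106538178-106714274 (minus), Cxcr5 at chr9:44511787-44561877 (minus) and Hey1 at chr3:8663359-8667256 (minus). Gzmb lies at chr14:56258838-56262260 (minus), Il10 at chr1:131019845-131024974 (plus) and Klrg1 at chr6:122270596-122282882 (minus).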

How the data were processed

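Single Foxp3+ Tregs of spleen and colon were counted by inDrops. The deposited table holds raw counts of UMIs for 23725 genes in 3008 cells, of which 7983 genes had no UMI, and 0 columns were left out. TopHat2, SAMtools and mm10 are listed in the submitters' processing notes. For their roles, the annotation and the UMI collapsing, nothing is stated in the labels.

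The UMIs of all cells of a class were added up per library and scaled to CPM in Python 3.11.15 with numpy 2.4.6, pandas 2.3.3 and scipy 1.17.1. Ratios carry exact conditional binomial intervals, shares Clopper-Pearson intervals and levels exact Poisson intervals. A gene at 0 was set to a floor of 3 counts per class and library. A call needed 2-fold in the same direction in both colon libraries, and at least 100 CPM in the members of both or the compared cells of both. List genes needed at least 20 UMIs in each colon library. The 8 gating genes were left out. Named genes were the 12 highest and 12 lowest by the smaller ratio (8 and 8 for spleen and for the Ccr7 and Bcl6 split), 17 fixed genes and up to 3 per list, without T cell receptor, immunoglobulin, ribosomal and unnamed genes. Further genes are members of the lists, named after their values were seen.

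Members and lists were chosen with earlier results of these data known. With 1 library per group or libraries of unknown animals no test was run. No doublet caller was run. Scripts were tested on simulated data. Alternatives were edgeR 4.0.16 TMM in R 4.3.3, median of ratios, totals without ribosomal protein genes, other filters, folds and gates, thinning to 1000 UMIs, and each colon library alone. Some genes of the lists, and 1 list, are not reported here.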

Additional observations from a re-analysis of the deposited data

Results flagged for a closer look

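Hey1 went in opposite directions in the colon libraries, with a log2 ratio of members to other colon cells of -0.998 in colon 1 and 2.65 in colon 2. The first rests on 1 UMI in 44 members and the second on 41 UMIs in 14 of 130 members. The difference between the libraries was not tested. Epcam, an epithelial adhesion gene, also went in opposite directions. It gave 5 UMIs in 2 members of colon 1 (52.3 CPM against 28.7 CPM, log2 ratio 0.86, -0.85 to 2.23) and 0 UMIs in colon 2 members against 61.8 CPM, which places it at least 6.42-fold lower there (a log2 ratio of -2.68 at the floor). This difference between libraries was not tested either.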

How the results depend on the processing

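Members hold few cells, so the share of genes past 2-fold depended on the level filter, the fold and the library. The mean log2 ratios of the named genes were recomputed under 9 settings that change scaling, gates, depth or cells. Of these 2163 values 19 left the joint counting interval of both colon libraries, and 0 of the called ones changed direction. That interval runs from the lowest lower bound to the highest upper bound of both libraries. It is wide, so a small change of scale seldom leaves it, and the low count is no measure of robustness. The percent of tested genes higher and lower than in other colon cells was 2.12% and 3.23% at 50 CPM, 1.37% and 4.104% at 200 CPM, 2.69% and 1.68% with no CPM filter, 6.07% and 7.21% at 1.5-fold and 0.901% and 1.08% at 3-fold. Leaving out a colon library gave 3.68% to 14.8% and 4.65% to 9.72%. Against the gate-matched cells the percents were 1.94% and 3.18%, 1.38% and 3.38%, 2.20% and 1.88%, 5.67% and 7.04%, and 0.776% and 1.13% in the same order, and 3.44% to 14.3% and 4.84% to 10.2% when leaving out a library. Against spleen they were 8.74% and 3.55% at 50 CPM, 11.8% and 1.47% at 200 CPM, 5.95% and 2.02% with no CPM filter, 17.8% and 6.67% at 1.5-fold, 5.13% and 0.57% at 3-fold, and 18.2% to 22.4% and 5.78% to 7.02% when leaving out a library. Genes lower than in spleen were 4.06% with TMM and 3.45% without ribosomal protein genes. The number of genes tested changes with the level filter, so these percents do not share a denominator. Members made up 4.92% of colon 1 and 5.91% of colon 2 when the gate was set on cells thinned to 1000 UMIs, 10.3% and 9.12% with 1 UMI as the gate on thinned cells, and 5.96% of colon 2 with a gate of 3 UMIs. The filters and folds change how many genes can pass, and the gates how many cells. No paired analysis was possible because no result comes from a test, although each ratio to other or gate-matched colon cells is taken within 1 library. The self-test and intervals cover counting error only, and spread between animals is unknown.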
